A study of Mus musculus with 2 samples.

Results

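Mitochondrial ribosomal proteins are the nuclear-encoded proteins of the ribosome that works inside mitochondria, and 77 of their genes were followed here among 19938 genes measured. Members were the genes named by exactly 1 symbol in the platform annotation whose symbol starts with Mrpl or Mrps followed by a number, which gave 48 genes of the large subunit (Mrpl) and 29 of the small subunit (Mrps). The RNA came from KSL cells, sorted marrow cells positive for c-Kit and Sca-1 and negative for lineage markers, among which blood stem cells and early progenitors are concentrated. The knockout group was 1 RNA pool from Nrf2-/- mice and the control group was 1 RNA pool from Nrf2+/+ mice. Each pool came from 5 young healthy mice aged 8 to 10 weeks on the C57BL/6J background, and no treatment is named for either. Each pool was hybridised to 1 Affymetrix Mouse Gene ST 1.0 array, so no difference had a replicate check, no test was run and no p-value is given. The number of arrays limits the precision of every value. In such bulk samples, fewer cells of a type and less RNA per cell cannot be told apart.

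The mitochondrial ribosome translates the few messages that are encoded by mitochondrial DNA, which specify core subunits of the respiratory chain and of the ATP synthase. Its RNA comes from the mitochondrial genome, whereas all of its proteins are made in the cytosol and imported, so its assembly joins the products of 2 genomes. The large subunit forms the peptide bond and holds the exit tunnel, and the small subunit binds the message and decodes it. Part of the proteins descend from those of bacterial ribosomes and the others are found in mitochondria only. Stem cells in the marrow are known to rely little on respiration at rest and more on it once they enter the cycle. The deleted factor NRF2 is encoded by Nfe2l2 and drives antioxidant genes. It is a different protein from GABP, which is also called nuclear respiratory factor 2 and which is known to bind promoters of mitochondrial genes.

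The members with the largest differences between the pools were Mrps18b, Mrpl48, Mrpl11 and Mrps22, lower in the knockout, and Mrpl9, higher. The promoters of 4 of these genes are shown because these genes differed by the most, and because they differ in the motifs they hold. Mrpl48 is left out, since its probe set may not read that gene, as described with its values. Each sequence is the 250 bases before a start site in the RefSeq promoter table of build GRCm38.p6, written 5′ to 3′ on the gene's own strand. For Mrps18b and Mrps22 this start is the outer end of the annotated gene. For Mrpl11 and Mrpl9 it lies further inside, so that the last 154 and 182 of the 250 bases, with the match marked in Mrpl9, fall within the annotated gene. Capitals mark a match to 1 of 4 motifs searched on both strands: CCGGAAG for GABP and related ETS factors, the palindrome of nuclear respiratory factor 1 (NRF1), 10 bases that stand in capitals in the Mrpl9 window, AAGATGGCG for YY1 and TGACNNNGC for the core of the antioxidant response element that NRF2 binds. The windows were chr17:35916441-35916690 on the minus strand for Mrps18b, chr19:4962056-4962305 on the plus strand for Mrpl11, chr9:98601680-98601929 on the minus strand for Mrps22 and chr3:94443086-94443335 on the plus strand for Mrpl9.
Mrps18b: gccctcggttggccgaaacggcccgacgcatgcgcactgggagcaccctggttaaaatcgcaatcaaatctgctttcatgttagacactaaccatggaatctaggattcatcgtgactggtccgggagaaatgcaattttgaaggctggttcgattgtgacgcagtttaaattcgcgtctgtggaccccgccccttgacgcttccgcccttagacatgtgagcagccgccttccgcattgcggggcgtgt
Mrpl11: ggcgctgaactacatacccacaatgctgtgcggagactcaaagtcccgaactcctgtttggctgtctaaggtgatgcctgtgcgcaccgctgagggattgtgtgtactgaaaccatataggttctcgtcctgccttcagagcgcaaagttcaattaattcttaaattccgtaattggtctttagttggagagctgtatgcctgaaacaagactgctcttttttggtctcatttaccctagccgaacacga
Mrps22: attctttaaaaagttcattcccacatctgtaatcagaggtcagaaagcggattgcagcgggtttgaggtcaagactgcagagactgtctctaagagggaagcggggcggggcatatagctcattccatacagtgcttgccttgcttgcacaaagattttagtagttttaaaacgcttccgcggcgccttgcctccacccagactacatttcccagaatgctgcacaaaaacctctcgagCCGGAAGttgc
Mrpl9: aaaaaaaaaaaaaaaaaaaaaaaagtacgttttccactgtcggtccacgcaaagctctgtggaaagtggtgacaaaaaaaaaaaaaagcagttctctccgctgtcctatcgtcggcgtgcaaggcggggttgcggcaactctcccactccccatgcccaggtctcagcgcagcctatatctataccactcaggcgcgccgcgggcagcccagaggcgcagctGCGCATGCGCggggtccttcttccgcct
The Mrps22 window held 1 match to the GABP letters next to the start, and the Mrpl9 window held 1 match to the NRF1 palindrome. The Mrps18b window had 1 GABP match that lies in the 50 bases after the start, which are not printed. In the Mrpl11 window none of the 4 motifs was found, and none of the 4 genes had a match to the antioxidant response element core.

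As a group, the members were modestly lower in the knockout pool. Values are log2 intensities, on which a step of 1 is a doubling, and a difference is written as log2 knockout minus log2 wild type. A level filter kept genes whose mean over both arrays reached the median over all genes, 6.57, and 74 of the 77 members passed it. The median difference of the 74 members was −0.12, or 91.8% of the wild-type level, and over all 9970 genes past the filter it was −0.02. Of the 74 members, 48 were lower and 25 higher, against 52.9% of all genes lower and 46.5% higher, and Mrps21 was equal in both arrays. The knockout array also held less signal of neutrophil markers, with a median difference of −1.64 past the same filter, which some passed only through the wild-type array. The part of these markers in the lower median of the members was not tested. Most differences were small, and 25 of the 74 members lay within 0.1 of equality.

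Counted by a size of at least 1.5-fold, 4 members were lower, where 4.3% of all genes were, and 1 was higher, where 2.34% of all genes were. At 2-fold, 1 member was lower and 0 were higher, against 0.762% and 0.411% of all genes. These shares of large differences were close to the background. The spread of the members, with an SD of 0.30, was also close to that of all genes, at 0.33. For scale, the probe-set error of 1 difference was 0.31 (SD, from 515 genes with 2 probe sets each), and 0.17 when estimated robustly. Of the 74 members, 14 were lower by more than this error, taken as 0.315, where 15% of all genes were, and 3 were higher by more, where 9.62% were. In total 23.0% of the members differed by more than this error, where 24.6% of all genes past the filter did. Within these totals, the members leaned to lower values more than all genes did.

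**Figure D1:**
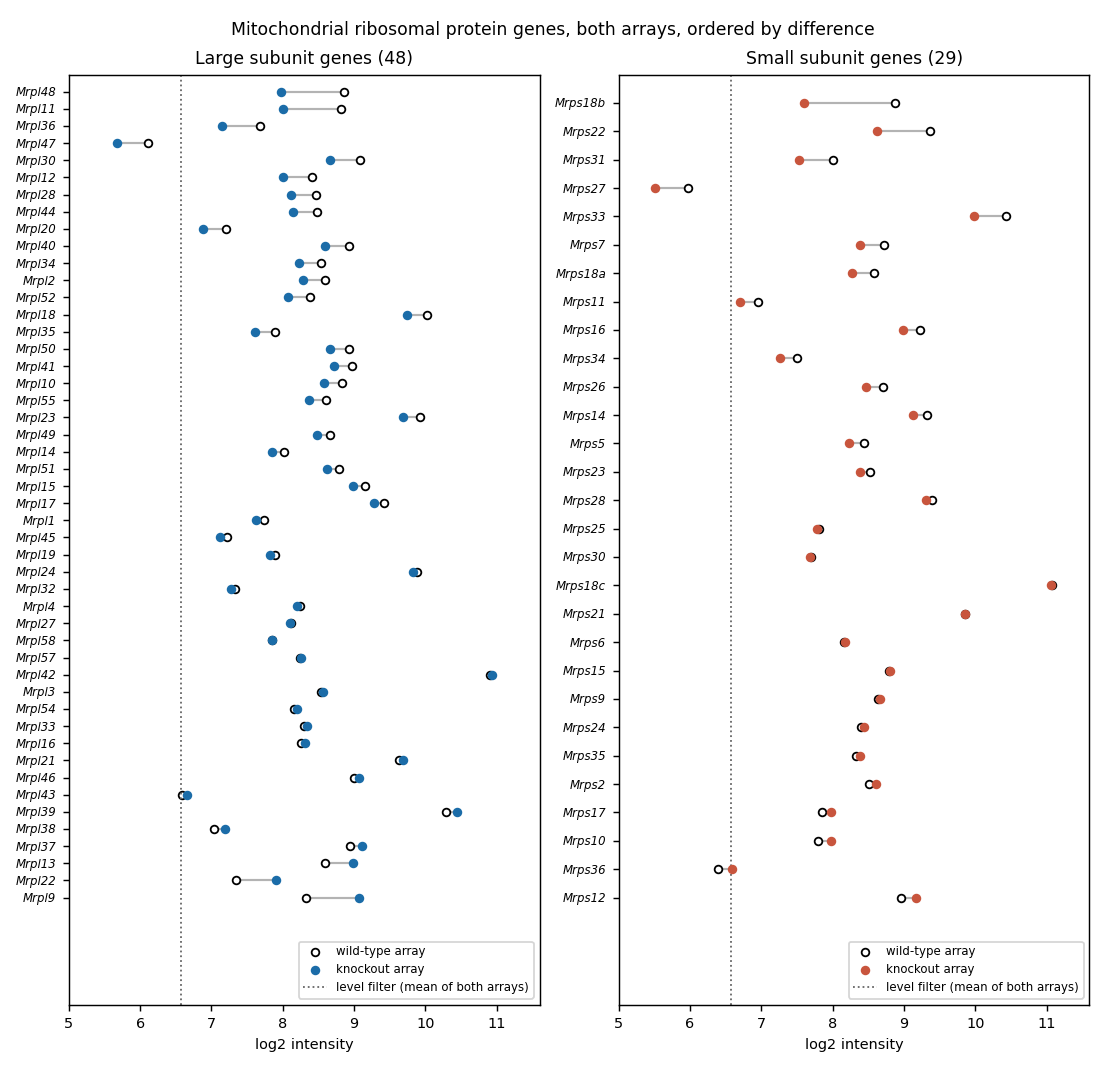
Log2 intensity of each of the 77 members on the wild-type array (open circles) and the knockout array (filled circles), large subunit on the left and small subunit on the right, ordered by the difference from most lower to most higher in the knockout; the dotted line is the level filter of 6.57. Each circle is 1 array; Mrps18b has the widest gap, from 8.88 to 7.59, and Mrpl9 the widest in the other direction, from 8.32 to 9.08.

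Genes of both subunits had medians below 0. The 47 large subunit genes past the filter had a median difference of −0.14, with 31 lower and 16 higher, and the 27 small subunit genes had one of −0.08, with 17 lower and 9 higher. By means the order turned: −0.12 for the large and −0.17 for the small subunit. The small subunit mean includes Mrps18b, at −1.29 the largest difference of all members, and was not recomputed without it. The large minus small gap was therefore −0.06 by medians and 0.04 by means, and its sign depended on that choice. The SD among genes was 0.29 in the large and 0.31 in the small subunit. The ranges overlapped for most of their length, from −0.87 to 0.75 in the large and from −1.29 to 0.20 in the small subunit. The 3 members that were higher by the most, Mrpl9, Mrpl22 and Mrpl13, all belong to the large subunit, and the member lower by the most belongs to the small subunit.

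**Figure D2:**
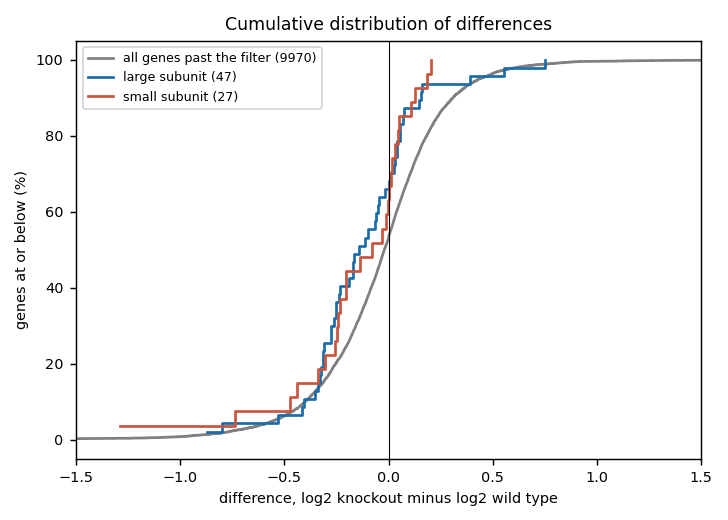
Cumulative share of genes (y axis, %) at or below each difference (x axis, log2 knockout minus log2 wild type) for 47 large subunit genes (blue), 27 small subunit genes (red) and all 9970 genes past the level filter (grey). Both subunit curves lie left of the grey curve between about −0.3 and 0.2, with 66.0% of large and 63.0% of small subunit genes below 0 against 52.9% of all genes, and they cross each other several times.

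In the small subunit, Mrps18b was lower by the most of all members. It encodes 1 of 3 mammalian relatives of the bacterial protein S18. Its level was 7.59 in the knockout pool against 8.88 in the wild-type pool, which gives a difference of −1.29 or a 2.44-fold lower value, and it ranked number 34 from the lowest of the 9970 genes. The other relatives of S18 did not share that size. Mrps18a stood at 8.27 against 8.57, a difference of −0.31, and Mrps18c at 11.07 in both arrays. Mrps18a is known from structures to sit in the large subunit in spite of its symbol, as does Mrps30, which stood at 7.68 against 7.70. With both counted in the large subunit and Mrps36 left out, the subunit medians were still −0.14 and −0.08.

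Mrps22, a mitochondria-specific protein whose mutation causes a neonatal respiratory chain disease, stood at 8.62 in the knockout pool against 9.36 in the wild-type pool, which gives a difference of −0.74. The next lowest small subunit gene was Mrps31, also mitochondria-specific, at 7.53 against 8.00, a difference of −0.47. Mrps33 followed at 9.99 against 10.42, or −0.44. After these came Mrps7, whose bacterial counterpart starts the assembly of the small subunit head, at 8.38 against 8.72. These genes were all lower in the knockout pool by more than the probe-set error of 0.315, and the others past the filter that were lower lay within it.

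At the other end of the small subunit, no gene reached 1.5-fold. Mrps12, the counterpart of the S12 protein at the decoding centre, stood at 9.17 in the knockout pool against 8.96 in the wild-type pool, which gives a difference of 0.20. Mrps10 stood at 7.98 against 7.79, or 0.19. Mrps17 and Mrps2 were higher by 0.13 and 0.11, and Mrps35 by 0.05. All of these differences were smaller than the probe-set error.

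In the large subunit, Mrpl48 and Mrpl11 were lower by the most. Mrpl11, which forms the base of the stalk where translation factors dock, stood at 8.01 in the knockout pool against 8.81 in the wild-type pool, which gives a difference of −0.80. Mrpl48, a protein of the central protuberance, stood at 7.98 against 8.85, a difference of −0.87. Its only probe set needs care: all 10 nearest probe sets in ID order belong to genes of chromosome 4, whereas Mrpl48 lies on chromosome 7. Whether this probe set reads Mrpl48 or a copy elsewhere was not tested.

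Behind these came 3 other members. Mrpl36, a small protein related to bacterial L36, stood at 7.14 against 7.67, a difference of −0.53. Mrpl30 stood at 8.66 against 9.08, or −0.41. Mrpl12, the stalk protein that binds elongation factors and has also been reported to bind the mitochondrial RNA polymerase, stood at 8.01 against 8.41, or −0.41. Each of these differences was larger than the probe-set error.

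Higher values in the large subunit came from a few genes. Mrpl9, the counterpart of the bacterial protein L9, stood at 9.08 in the knockout pool against 8.32 in the wild-type pool, which gives a difference of 0.75 or a 1.69-fold higher value, and ranked number 113 from the highest. Mrpl22, which lines the exit tunnel, stood at 7.91 against 7.35, a difference of 0.55 that fell short of 1.5-fold. Mrpl13, whose bacterial counterpart is an early assembly protein, stood at 8.98 against 8.59, or 0.39. Behind these, Mrpl37 and Mrpl38 were each higher by 0.16, within the probe-set error. The difference of Mrpl39 was 0.15, at 10.44 against 10.29, and that of Mrpl42 was 0.03, at 10.94 against 10.91.

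The 3 members below the level filter were Mrps27, Mrpl47 and Mrps36. Mrps27, an RNA-binding protein of the small subunit, stood at 5.504 in the knockout pool against 5.977 in the wild-type pool. Mrps36 was just below the filter, with a mean of 6.49, at 6.59 against 6.39. It has since been assigned to the 2-oxoglutarate dehydrogenase complex. Mrpl43 was just above the filter, with a mean of 6.62, at 6.66 against 6.58.

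There were 8 members with 2 probe sets each, and in most of them both gave nearly the same difference. Mrpl23 gave −0.23 by both, Mrps36 0.19 by both, Mrps33 −0.43 and −0.44, Mrps5 −0.19 and −0.22, and Mrpl27 −0.03 and −0.01. Whether the 2 probe sets of a gene share probes was not tested. Such agreement is therefore not an independent check. Mrpl51 gave −0.27 and −0.07. In 2 genes the probe sets disagreed: Mrpl41 gave −0.04 and −0.46, and Mrpl47, a relative of bacterial L29 at the tunnel exit, gave −0.95 and 0.07. In 6 of the 8 genes, 1 of the 2 probe sets had most of its neighbours in ID order on another chromosome than the gene, these being all but Mrps5 and Mrpl47. Of the 85 probe sets of members, 7 were placed this way, counting that of Mrpl48. Among all probe sets with 1 symbol and a known chromosome the share was 3.14%. Without these 7, the median difference of the members was −0.09.

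The members were also split by descent, and no test was possible for these splits. In the large subunit, the 29 relatives of bacterial ribosomal proteins had a median difference of −0.17, with 22 lower, and the 18 mitochondria-specific proteins had one of −0.05, with 9 lower and 9 higher. By means these groups were nearly level, at −0.13 and −0.12. Without Mrpl48, the median of the mitochondria-specific genes was 0.00 over 17 genes. In the small subunit, the 18 bacterial relatives had a median of −0.00, with 9 lower and 8 higher, and the 9 mitochondria-specific proteins had one of −0.23, with 8 lower. The means there were −0.12 and −0.25, with SDs of 0.34 and 0.26. The share of all genes that were lower was 52.9%, and the split over both subunits gave medians of −0.11 for 47 bacterial relatives and −0.14 for 27 mitochondria-specific members.

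**Figure D3:**
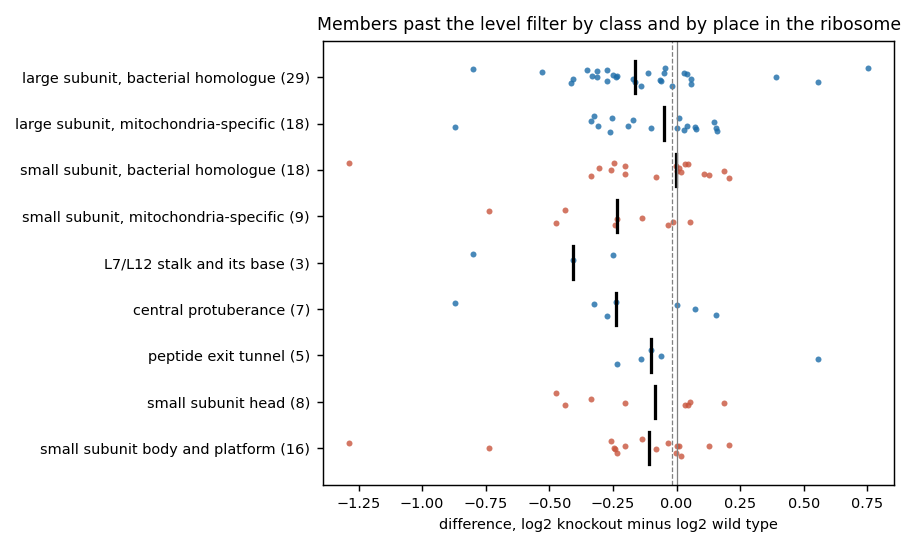
Difference (x axis, log2 knockout minus log2 wild type) of each member past the level filter, by descent and subunit (upper rows) and by place in the ribosome (lower rows), with the number of genes in parentheses; blue is the large and red the small subunit, black bars are medians, the solid line is 0 and the dashed line the median of all genes, −0.02. The 3 stalk genes all lie left of −0.25, and the other rows straddle 0.

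Genes of the same part of the ribosome were compared in groups assigned from known structures after the values had been seen. All 3 genes of the L7/L12 stalk and its base were lower, with Mrpl10 at −0.25, Mrpl12 at −0.41 and Mrpl11 at −0.80. Mrpl10 anchors the copies of Mrpl12, and its levels were 8.58 in the knockout pool against 8.83 in the wild-type pool. The 5 exit tunnel genes past the filter had a median of −0.10, with 4 lower and only Mrpl22 higher. In the central protuberance, which bridges to the small subunit, the 7 genes had a median of −0.24, with 4 lower and 3 higher, and of −0.12 without Mrpl48. In the small subunit, the 8 genes of the head had a median of −0.09, with 4 lower and 4 higher. The 16 genes of the body and platform had one of −0.11, with 11 lower and 4 higher.

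Ribosomal proteins of the mitochondrion whose symbols do not follow the pattern did not share the lower median. Of 7 listed, 4 were measured under the listed symbol and passed the filter, with a median of 0.19; Ict1 and Mrp63 are older symbols of the members Mrpl58 and Mrpl57. Dap3, which binds GTP in the small subunit, stood at 8.11 in the knockout pool against 8.44 in the wild-type pool, which gives a difference of −0.32. Chchd1 was higher by 0.32, the RNA-binding Ptcd3 by 0.19 and Gadd45gip1, a large subunit protein, by 0.18. The single probe set annotated to both Mrpl53 and Ccdc142 stood at 7.23 against 7.17 and was not a member because it names 2 genes.

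The wider machinery of mitochondrial translation had medians nearer to 0, with counts that differed between lists. Of 13 translation factors past the filter, 8 were lower and 5 higher, with a median of −0.04. Gfm2, the factor that splits the ribosome after each round, stood at 7.08 in the knockout pool against 8.07 in the wild-type pool, which gives a difference of −0.997, and was the only factor at least 1.5-fold lower. The initiation factor Mtif3 differed by −0.50 and Mtfmt, which formylates the initiator tRNA, by −0.47. Of 19 synthetase and amidotransferase genes that charge mitochondrial tRNAs, 5 were lower and 14 higher, with a median of 0.02. That is 26.3% lower, against 52.9% of all genes and 64.9% of the members. Gatc differed by −0.46, Lars2 by 0.42 and Tars2 by 0.37.

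Factors that build the mitochondrial ribosome were split between lower and higher much as all genes were. Of 25 assembly and rRNA modification genes past the filter, 13 were lower and 12 higher, with a median of −0.07. That is 52% lower, against 52.9% of all genes. Ybey, an RNA nuclease, stood at 7.004 in the knockout pool against 6.225 in the wild-type pool, or 0.78 higher. Its wild-type value lay below the level filter, so that Ybey passed only through the knockout array. Mpv17l2 was higher by 0.59. Rbfa, which helps mature the small subunit, differed by −0.63. Among 22 genes of mitochondrial DNA replication, transcription and RNA handling, 13 were lower (59.1%) and 8 higher, with a median of −0.06. Slirp, which stabilises mitochondrial messages, differed by −0.77, the mitochondrial poly(A) polymerase Mtpap by 0.55 and the mitochondrial DNA packaging factor Tfam by −0.42. Of 11 regulators of mitochondrial biogenesis, 5 were lower (45.5%) and 6 higher, with a median of 0.03. The coactivators Pprc1 and Ppargc1b were higher by 0.43 and 0.28. Nrf1 and Gabpa, whose products are known to bind promoters of mitochondrial genes, differed by −0.17 and −0.10.

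**Figure D4:**
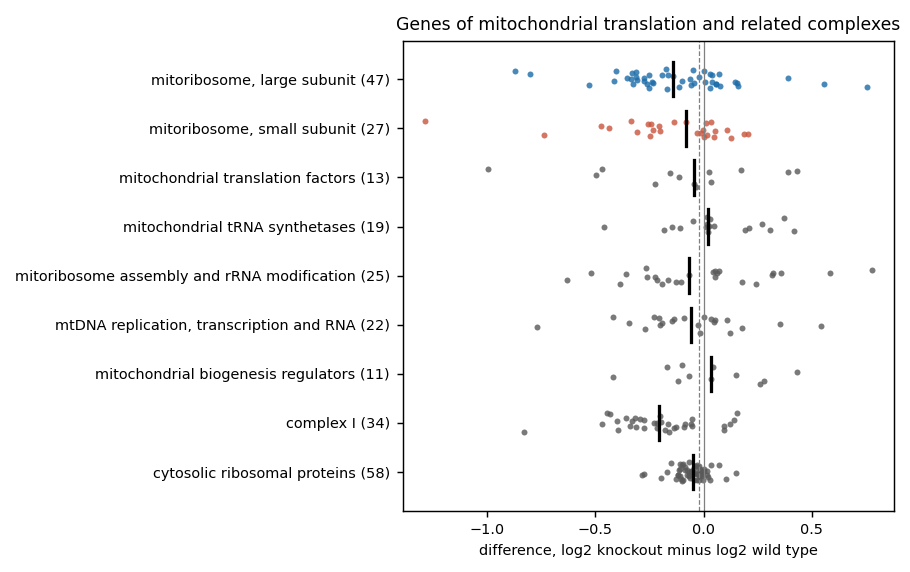
Difference (x axis, log2 knockout minus log2 wild type) of each gene past the level filter in the 2 subunits of the mitochondrial ribosome (blue and red) and in lists of related genes (grey), with the number of genes in parentheses; black bars are medians, the solid line is 0 and the dashed line the median of all genes, −0.02. Complex I has the lowest median, −0.21, cytosolic ribosomal proteins lie closest together, and the tRNA synthetases have a median of 0.02.

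Complex I of the respiratory chain and the cytosolic ribosome were set beside the members. Complex I takes up subunits made by the mitochondrial ribosome. Its nuclear-encoded genes were taken by symbol alone (Nduf, then a, b, c, s or v and a number). The 34 genes past the filter, Ndufa4 among them, had a median difference of −0.21, with 29 lower and 5 higher. That is 85.3% lower, against 52.9% of all genes. Ndufb3 differed by −0.83, Ndufv3 by −0.47 and Ndufa6 by −0.45. The 58 cytosolic ribosomal protein genes had a median of −0.05, with 48 lower and 10 higher. That is 82.8% lower, against 52.9% of all genes, but 43 of the 58 lay within 0.1 of equality. The SD of the 58 genes was 0.08, against 0.30 among the mitochondrial members. Their median signal was also higher, at 12.12 against 8.36 in the knockout pool. Whether the range of signal or the averaging of probe sets affects this contrast was not tested. The cytosolic genes that differed by the most were Rplp1 at −0.28, Rps27l at −0.27 and Rpl10 at −0.20. These lists shared both arrays with the members, and the differences between lists were not tested.

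Matches to the motif letters were counted in the promoters of the members. RefSeq windows of 300 bases, 250 before and 50 after the start, were found for 68 of the 77 members, which had 74 windows because some genes have several starts. The GABP letters were in 33.8% of the 74 windows, against 8.86% of all 32851 windows and 18.3% of the windows of genes past the level filter. The YY1 letters were in 10.8% of them, against 1.40% of all windows and 3.29% of those of genes past the filter. For NRF1 the shares were 4.05%, 0.971% and 2.21%, with 3 member windows, those of Mrpl9, Mrpl32 and Mrpl39. The antioxidant response element core was in 18.9%, 12.4% and 14.3%. In 0 of the windows did a GABP and a YY1 match share letters. The members' windows had a median GC content of 58.5%, against 52.7% in all windows and 60.7% in those of genes past the filter.

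Members were also compared by whether a window held a match, without a test. The 24 genes past the filter with a GABP match had a median difference of −0.14 and the 41 without one had −0.19. The 14 with an antioxidant response element core had a median of −0.10, with 8 lower, and the 51 without it had −0.17, with 35 lower. For YY1 the medians were −0.26 over 7 genes and −0.15 over 58. The 3 genes with an NRF1 match, Mrpl9, Mrpl39 and Mrpl32, had a median of 0.15, against −0.18 over the 62 without one, and differed by 0.75, 0.15 and −0.05. A match to the letters is not a bound site.

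Many members lay head to head with another gene. Of the 68 members with a window, 24 had a gene on the opposite strand whose start in the promoter table was within 500 bases upstream, which is 35.3%, against 11.5% of all genes and 19.1% of those past the level filter. Mrps11 and Mrpl46 are such a pair made of 2 members, with starts 40 bases apart, and they differed by −0.26 and 0.07. Mrps12 shares its start region with Sars2, the mitochondrial seryl-tRNA synthetase, and both were higher, by 0.20 and 0.19. Mrpl43 lies beside Twnk, the mitochondrial DNA helicase, which was higher by 0.12 where Mrpl43 was higher by 0.07. Mrpl40 and its neighbour Hira, a histone chaperone, differed by −0.33 and −0.31.

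Other pairs differed in direction. Mrpl30 was lower by 0.41 on the log2 scale in the knockout pool while its neighbour Mitd1 was higher by 0.32, and Mrps7, at −0.34, lies beside Gga3, at 0.20. Mrpl27, at −0.02, lies beside Eme1, a nuclease subunit of DNA repair, at 0.58. Over the 17 pairs with both genes past the filter, 13 members and 9 neighbours were lower, where 52.9% of all genes were. Both genes were lower in 8 pairs and both were higher in 3. In the 17 pairs the median difference was −0.20 for the members and −0.04 for the neighbours. The pair of Mrps11 and Mrpl46 entered with Mrps11 as the member. Klc4, the neighbour of Mrpl2 and lower like it, passed the filter only through the wild-type array. Whether paired genes shared a direction more often than unrelated genes was not tested.

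**Figure D5:**
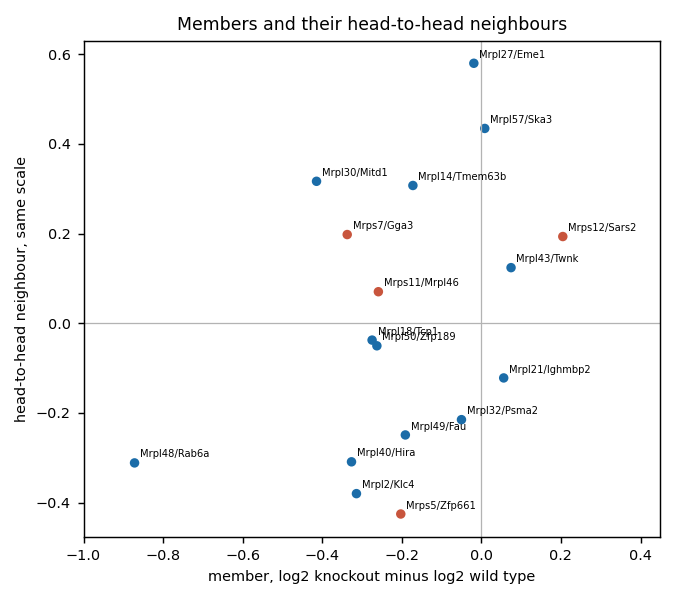
Difference of each member (x axis) and of its head-to-head neighbour (y axis), both as log2 knockout minus log2 wild type, for 17 pairs with both genes past the level filter; blue points are large and red points small subunit members, named member first. Points lie in all 4 quadrants, with 8 pairs in the lower left and 3 in the upper right; the probe set of Mrpl48 may not read that gene.

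The 2 arrays differed in other ways that touch a group-wide shift. Their medians over 28853 probe sets were both 6.41, and Nfe2l2 itself stood at 9.07 in the knockout pool against 9.16 in the wild-type pool, which gives a difference of −0.09. Which part of the gene is deleted is not given in the labels, so this value does not check the genotype. Neutrophil markers were lower in the knockout pool: of 12 listed, 11 passed the filter and all 11 were lower, with a median of −1.64 and a summed linear intensity of 6913 against 16338. The filter used the mean of both arrays, so that counts and medians include markers that passed only through the wild-type array. Among these were Retnlg, Mmp8 and Cxcr2, at 5.36, 5.74 and 6.19 in the knockout pool. Of 10 monocyte and macrophage markers, 7 passed and 6 were lower, with a median of −0.67 and sums of 1476 against 1842. Fn1 and Ccl6 passed in the same way, at 6.41 and 6.51 in the knockout pool. Of 9 KSL and stem cell markers, 6 passed, 3 lower and 3 higher, with a median of 0.04. The largest difference among them was that of Mecom, lower at 7.54 in the knockout pool against 7.99 in the wild-type pool. Kit was higher, at 11.21 against 10.93. The B lineage list had 3 genes past the filter with a median of −0.20, the T and NK list 2 with −0.30, and the erythroid list 1, Car1, at −0.75. The B lineage median is the value of Igll1, which passed only through the wild-type array, at 6.47 in the knockout pool. The other B lineage genes past the filter, Cd79b and Vpreb1, differed by −0.79 and 0.18.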

How the data were processed

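Total RNA of 1 pool of sorted KSL cells per genotype was amplified with NuGEN Ovation kits and run on 1 array each, per the labels' protocols. The authors deposited 1 log2 intensity for each probe set on each array, with the log base judged from the range of values. Partek is named in the submitters' processing notes without a version or a role; background correction, normalization and probe summary were not given in the sources used here. Once sorted, the values of the arrays lay within 0.0866 of each other, so a change common to all genes may have been removed before deposit.

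Of 28853 probe sets, 21789 had 1 gene symbol, 1621 several and 5443 none. Only the first kind was used, and probe sets of a gene were averaged. All 77 members matched GRCm38.p6 by Entrez ID with the same symbol. Differences are from the values as deposited. Members named were all those past the filter at 1.5-fold or more, the S18 relatives and members next to the filter. Also named per subunit were the 5 lowest and 5 highest differences and the 2 highest and 2 lowest levels. Beyond the members, Nfe2l2 and the 3 largest differences per list were named, except in the lists of cell type markers. Other genes, with the markers named, were chosen after their values were seen. The members, lists and motifs were chosen with earlier results of these data known. The position of a probe set was judged from its 5 neighbours on each side in ID order. The scripts were tested on simulated data. Alternatives were other scalings, level filters, probe set rules, sizes and subunit assignments. Python 3.11.15, numpy 2.4.6, pandas 2.3.3 and statsmodels 0.14.6 were used. Levels chose some of the genes named. No difference in level between genes is read as one in RNA amount, since signal depends on the probes.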

Additional observations from a re-analysis of the deposited data

How the results depend on the processing

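The median difference of the members was −0.12 as reported and stayed below 0 under each alternative tried. It was −0.10 with quantile normalization and with loess on mean level, −0.17 with the filter at the 75th percentile (55 members) and −0.091 without probe sets among neighbours of another chromosome, an alternative chosen after seeing the data. The large subunit median was −0.17 with the stricter filter, −0.11 with the probe set of highest mean and −0.11 without probe sets among neighbours of another chromosome. As a mean, the small subunit difference was −0.17, and the large minus small gap turned from −0.06 to 0.041. At 2-fold, the count of lower members was 1 and that of higher members 0. The value of Mrpl47 became 0.07 with its brighter probe set, and 138 other values of single members moved by less than the robust probe-set error of 0.17. Many of these values could not move, since changes of the probe set rule leave a member with 1 probe set as it was. Quantile normalization left 59.5% of members lower, against 49.4% of all genes, and changed the sign of 4 members, none with a difference above 0.032. No symbol of a member marked a pseudogene. No paired analysis was possible because each genotype had 1 array. With 1 array per genotype, the spread between mice, sorts and amplifications is not in any value.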
